A study of Mus musculus with 24 samples.

Results

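The interferon response genes described here are 34 mouse genes whose transcription interferons are known to raise, chosen by name as a gene group. On the array, 33 of them had a feature annotated with that symbol alone, out of 30142 genes with such a feature. Ifi44 had none and was not analysed here, and Ifit3b was found through its gene ID under an older symbol. The brightest feature stood for a gene within a tissue, a choice that concerned only Irf1, the member with several features. The genes were read in total RNA of the ventromedial hypothalamus (VMH), a hypothalamic region that takes part in the control of energy balance, and of brown adipose tissue (BAT), the fat that burns lipid to make heat. VMH was dissected from 100 µm brain sections, and 20 mg of BAT was used. Each tissue was measured in 4 groups of 3 arrays, which makes 24 Affymetrix arrays in 8 groups. The groups were conditional knockout mice on high fat diet (cKO HFD), control mice on high fat diet (control HFD), conditional knockout mice on standard diet (cKO SD) and control mice on standard diet (control SD), all after 16 weeks on their diet. The knockout is named in the labels as Gfap-Bmal1 cKO, a conditional deletion of the circadian clock gene Bmal1 (Arntl) directed by Gfap, a gene of astrocytes that other cells can also use. The sources used here do not give the Cre line, strain, sex or age. Nothing in the labels ties each array to its own animal, so p-values rest on array-to-array spread, part or all of which may be technical.

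Interferons are secreted proteins that cells release on sensing viral or misplaced nucleic acids. Type I and type III interferons act through receptors with JAK kinases to assemble a factor with Stat2 and Irf9 that binds the interferon-stimulated response element (ISRE), while interferon gamma acts on genes with the gamma-activated site (GAS). The genes so raised include the sensors and factors of the same pathway, direct antiviral effectors, GTPases that attack intracellular microbes, and brakes on the response. In brain they can be raised in microglia, astrocytes and vessel cells, and in fat in adipocytes and macrophages.

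The targeted gene did not separate the groups in the direction of its label. In VMH, Arntl read 9.54, 8.99 and 9.04 on cKO HFD arrays, 9.22, 8.83 and 8.80 on control HFD arrays, 8.93, 9.26 and 9.32 on cKO SD arrays and 8.58, 8.80 and 8.49 on control SD arrays, and no array labelled cKO lay below the control range of its diet. In BAT it read 6.87, 7.07 and 6.47 on cKO HFD arrays, 6.29, 6.41 and 6.69 on control HFD arrays, 6.16, 5.80 and 7.24 on cKO SD arrays and 5.84, 5.83 and 6.34 on control SD arrays, where 1 cKO SD array was below the control SD range. The sources used here do not say whether this feature lies in the deleted stretch, so it does not check the labels, and cKO below means labelled cKO. The 9 VMH neuron markers, all past the filter on low values, averaged log2 levels of 10.25 to 10.91 per array. In BAT, 10 brown adipocyte markers averaged 11.85 to 12.89 on cKO HFD arrays, 12.66 to 12.88 on control HFD arrays, 9.19 to 12.20 on cKO SD arrays and 7.22 to 12.88 on control SD arrays. The BAT arrays also differed in 14 skeletal muscle markers, whose mean log2 level was 6.16 to 13.29 on cKO HFD arrays, 6.14 to 10.05 on control HFD arrays and 14.85 to 17.26 on cKO SD arrays. On control SD arrays the same muscle mean was 17.43 and 16.53 on arrays 1 and 3 and 6.13 on array 2. Pairs of BAT arrays correlated with r between 0.891 and 0.996 over genes, and pairs of VMH arrays with r between 0.992 and 0.997.

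The sequences around the start sites were searched for what the members share beyond their names. A promoter window of 250 bases before to 50 bases after the start site was on hand for 28 of the 34 genes, from RefSeq with build GRCm38.p6. The ISRE core, which is GAAA, any 2 bases and GAAA again, searched on both strands, occurred in the windows of 16 of these 28 genes (57.1%) and of 3.99% of 27025 genes in the same table. GAS letters, TTCNNNGAA, occurred in 10 of 28 (35.7%), against 9.55% of all genes. The clock E-box CACGTG, which Bmal1 with Clock binds, was in the window of Trim25 alone among the 28 (3.57%), against 8.09% of all genes. ISRE matches can overlap one another, and in Bst2 and in Ifitm3 the GAS match overlaps an ISRE match. These are matches of letters and not measured binding. The stretches below carry the ISRE cores of the Ifit cluster, of Rsad2 and Bst2, and of Isg15, a classical interferon target. All read 5′ to 3′ on the strand of the gene, lie before its start site, and have the ISRE letters in capitals (read as TTTC, 2 bases, TTTC where the core lies on the other strand).

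Ifit1, chr19:34640769-34640828, plus strand: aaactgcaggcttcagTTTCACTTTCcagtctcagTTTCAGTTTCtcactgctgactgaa
Ifit3, chr19:34583365-34583424, plus strand: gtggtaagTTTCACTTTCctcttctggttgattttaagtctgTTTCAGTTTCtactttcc
Ifit3b, chr19:34607761-34607820, plus strand: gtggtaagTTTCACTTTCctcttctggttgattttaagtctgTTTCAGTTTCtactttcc
Rsad2, chr12:26456538-26456597, minus strand: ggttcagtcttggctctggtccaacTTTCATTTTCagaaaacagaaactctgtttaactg
Isg15, chr4:156200856-156200915, minus strand: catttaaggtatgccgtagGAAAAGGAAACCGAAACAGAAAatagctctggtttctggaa
Bst2, chr8:71537565-71537624, minus strand: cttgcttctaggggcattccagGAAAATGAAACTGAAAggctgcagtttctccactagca

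Ifit1 carried 2 ISRE cores in its stretch, Bst2 had 2 that overlap, Isg15 had 3 that overlap and Rsad2 had 1. The stretches of Ifit3 and Ifit3b were identical over all 60 bases. These genes are near copies of each other on chromosome 19, and whether their features read 1 or both of them was not tested, so values of either are uncertain as to the copy. Ifit2, their neighbour, had no ISRE core in its window.

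A gene was tested in a tissue when its mean log2 signal over the 12 arrays was at or above the median over the whole table, 5.51 in VMH and 4.13 in BAT. In VMH 21 members passed, among 16211 genes, and in BAT 31 members passed, among 17124 genes. All 21 that passed in VMH also passed in BAT. The 10 that passed in BAT alone were Ifi35, Dhx58, Isg15, Irf1, Irf7, Mx2, Oas1a, Oasl2, Rsad2 and Usp18. Mx1 and Oasl1 passed in neither. The members just above the VMH filter were Parp14, with a mean of 5.65, and Rtp4, with 5.74, and those just below it were Oasl2, with 5.42, and Ifi35, with 5.31. In BAT Isg15 was just above its filter at 4.21, with Oasl1 below it at 3.84. Since the filter is set on each tissue's own table, passing it in 1 tissue alone is no measure of a difference between tissues.

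Some classical interferon targets thus read under the filter in VMH. Isg15, a ubiquitin-like protein conjugated to others during the response, read 4.65, 4.44 and 4.45 on cKO HFD arrays, 4.54, 4.51 and 4.29 on control HFD arrays, 4.46, 4.42 and 4.45 on cKO SD arrays and 4.32, 4.48 and 4.74 on control SD arrays there. Rsad2 (viperin), an enzyme that makes a nucleotide which stops viral RNA synthesis, read 4.91, 5.58 and 5.48 on cKO HFD arrays, 5.01, 5.13 and 4.92 on control HFD arrays, 5.22, 5.24 and 5.12 on cKO SD arrays and 4.80, 4.87 and 5.18 on control SD arrays in VMH. Neither was tested in that tissue, and in Rsad2 the values of the genotypes overlapped on both diets.

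Members differed widely in how far the arrays of a group spread. In VMH the SD within groups was 0.053 for Samhd1, an enzyme that breaks down free deoxynucleotides, and 0.44 for Ifitm3, a membrane protein that blocks virus entry. The median was 0.138 over the 21 members and 0.119 over all genes tested. In BAT it was 0.11 for Oasl2, of the OAS-like family, and 0.75 for Rsad2, with medians of 0.240 over the 31 members and 0.234 over all genes. The deviation of each array from the mean of its gene is drawn for every member in the heat map.

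**Figure D1:**
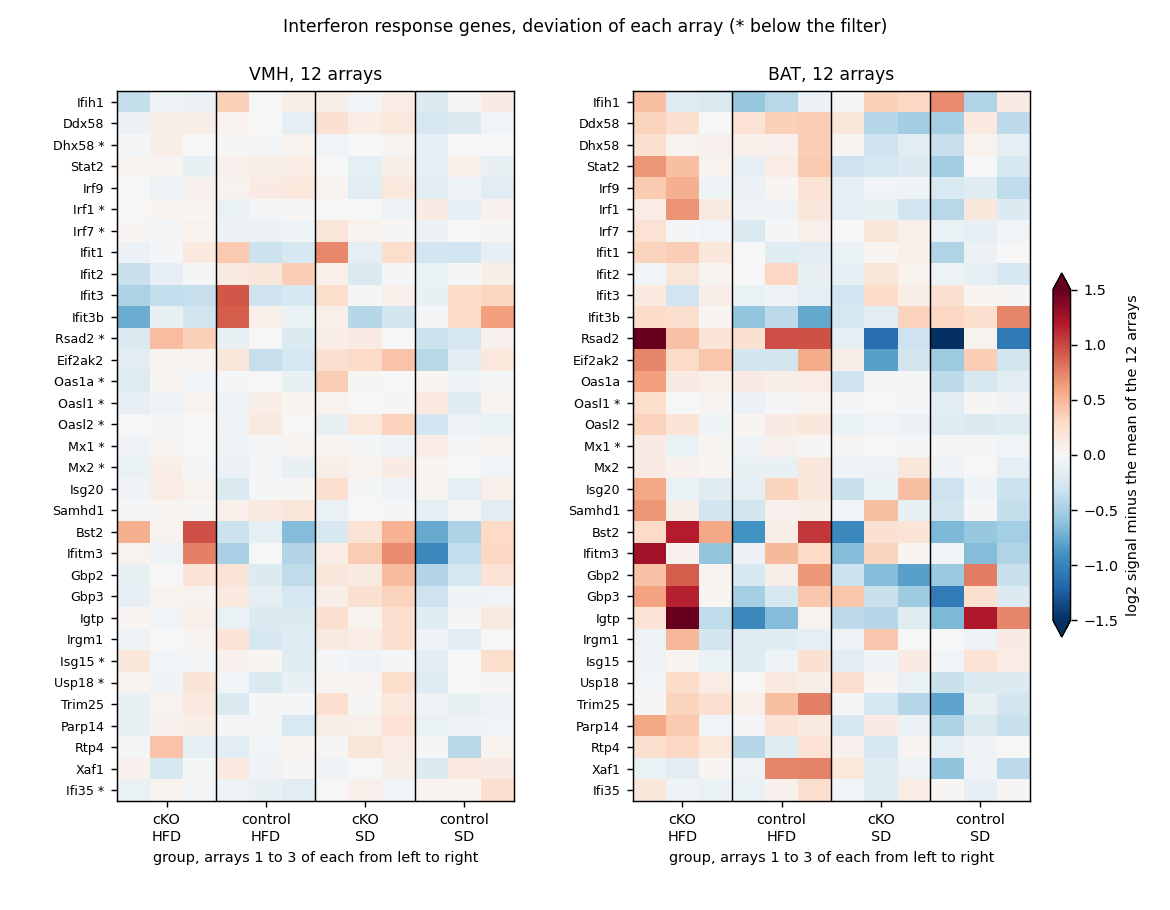
Deviation of the log2 signal of each array from the mean of the 12 arrays, for 33 interferon response genes in VMH (left) and BAT (right). Columns are arrays 1 to 3 of each group and colours are log2 differences. The members with the widest range over the arrays are Rsad2, Igtp and Gbp3 in BAT, and Bst2, Ifitm3 and Ifit3b in VMH.

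The first question was whether the knockout changed the interferon response in VMH. No member passed the threshold (adjusted p under 0.05, limma) on SD, where 0.271% of 16211 genes did. Most members nevertheless read higher on cKO SD arrays than on control SD arrays: 17 of 21 changes were above 0 and 4 below, with a median log2 change of 0.21, while the median over all genes was 0.019 and 57.3% of them were above 0. At an unadjusted p under 0.05, 10 members were higher and 0 lower, against 4.59% and 2.12% of all genes. In that fit 0.253% of genes passed the threshold as higher. In 6 members the arrays of the groups did not overlap, all higher in cKO, against 7.01% of all genes that were higher in this way and 2.92% that were lower. On HFD the picture was mixed: again 0 members passed (0.302% of genes did), 13 changes were above 0 and 8 below, and the median was 0.065, with 0.029 over all genes. At an unadjusted p under 0.05, 2 members were higher and 3 lower on HFD, against 7.75% and 3.55% of genes, and the groups did not overlap in 2 that were higher and 6 that were lower, against 13.1% and 7.08%. With 1 array left out at a time, the HFD median lay between -0.0021 and 0.115, and the SD median between 0.176 and 0.237.

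An RNA sensor had the highest moderated t statistic on SD (limma, the statistic meant below). Ddx58 (RIG-I), a cytoplasmic sensor of viral RNA, read 6.25, 6.15 and 6.19 on cKO SD arrays, against 5.77, 5.81 and 5.99 on control SD arrays. These SD groups did not overlap, and the change was 0.34 ± 0.079 (log2, SE, here and below) with adjusted p = 0.243. On HFD the sensor read 5.95, 6.12 and 6.12 on cKO HFD arrays, against 6.09, 6.03 and 5.90 on control HFD arrays, groups that overlapped, with a change of 0.057 ± 0.079 and adjusted p = 0.83. Averaged over diets Ddx58 had a change of 0.20 ± 0.056 (adjusted p = 0.207), the smallest adjusted p of any member in VMH. Ifih1 (MDA5), the sensor of long double-stranded RNA, lay on the other side of 0 on HFD, with 5.58, 5.87 and 5.85 on cKO HFD arrays, against 6.29, 5.95 and 6.02 on control HFD arrays. That change was -0.32 ± 0.12 (adjusted p = 0.349), and on SD Ifih1 read 6.03, 5.90 and 6.04 on cKO SD arrays, against 5.73, 5.92 and 6.06 on control SD arrays, groups that overlapped, with a change of 0.086.

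Among the direct effectors, Eif2ak2 (PKR), the kinase that halts translation on meeting double-stranded RNA, read 7.64, 7.69 and 7.83 on cKO SD arrays, against 6.98, 7.23 and 7.55 on control SD arrays. The groups did not overlap, and the change of 0.46 ± 0.16 missed the threshold (adjusted p = 0.589). Bst2 (tetherin), which holds budding virus on the cell surface, read 7.16, 6.69 and 7.60 on cKO HFD arrays, 6.31, 6.49 and 5.99 on control HFD arrays, 6.40, 6.84 and 7.15 on cKO SD arrays and 5.87, 6.16 and 6.93 on control SD arrays. The HFD groups did not overlap and the SD groups did, and the changes were 0.89 ± 0.30 on HFD (adjusted p = 0.316) and 0.47 ± 0.30 on SD (adjusted p = 0.847). Ifitm3 read 6.81, 6.67 and 7.51 on cKO HFD arrays, 6.27, 6.76 and 6.31 on control HFD arrays, 6.87, 7.13 and 7.46 on cKO SD arrays and 5.79, 6.38 and 7.07 on control SD arrays. Its groups overlapped on both diets, and its change averaged over diets was 0.65 ± 0.22 (adjusted p = 0.308). Markers of other cells in the same arrays included 7 of 9 choroid plexus and meninges genes, whose mean log2 level was 7.03 to 7.85 on cKO HFD arrays, 7.37 to 7.93 on control HFD arrays, 8.01 to 8.19 on cKO SD arrays and 7.198 to 8.02 on control SD arrays. The mean of 11 oligodendrocyte markers was 9.38 to 9.57 on cKO HFD arrays, below 9.81 to 10.05 on control HFD arrays, and 9.07 to 10.20 on cKO SD arrays, overlapping 9.57 to 11.04 on control SD arrays. Ranges overlapped between genotypes on each diet for macrophages and microglia (15 of 18 markers past the filter) and for endothelial cells (9 of 10). The mean of 4 dendritic cell markers, of which Bst2 is itself 1, was 7.72 to 8.05 on cKO HFD arrays, above 7.59 to 7.69 on control HFD arrays. On cKO SD arrays it was 7.68 to 7.84, overlapping 7.51 to 7.84 on control SD arrays. The mean of 10 astrocyte markers was 10.28 to 10.40 on cKO HFD arrays, above 10.11 to 10.23 on control HFD arrays, and 10.32 to 10.52 on cKO SD arrays, overlapping 9.88 to 10.36 on control SD arrays. The part of these markers in the members' values was not tested. As in any bulk sample, fewer cells of a type and less RNA per cell cannot be told apart.

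The interferon-inducible GTPases among the members had genotype changes above 0 (cKO minus control) without passing the threshold. Gbp3, a guanylate-binding protein, read 6.20, 6.34 and 6.44 on cKO SD arrays, against 5.80, 6.05 and 6.07 on control SD arrays, with no overlap, and had a change of 0.35 ± 0.11 (adjusted p = 0.577). Igtp (Irgm3), of the GTPases that act at vacuoles of intracellular parasites, read 5.96, 5.89 and 6.002 on cKO HFD arrays, 5.83, 5.71 and 5.73 on control HFD arrays, 6.17, 5.98 and 6.18 on cKO SD arrays and 5.75, 5.90 and 6.06 on control SD arrays. The HFD groups of Igtp did not overlap and the SD groups did, and the change averaged over diets was 0.20 ± 0.061 (adjusted p = 0.243). The changes of all 4 members of this kind tested (Gbp2, Gbp3, Igtp and Irgm1) were above 0 on both diets.

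The IFIT genes, whose proteins bind foreign RNA ends, had changes on both sides of 0. Ifit3b read 6.22, 6.86 and 6.69 on cKO HFD arrays, 7.87, 7.05 and 6.86 on control HFD arrays, 7.04, 6.54 and 6.69 on cKO SD arrays and 6.94, 7.25 and 7.58 on control SD arrays. Its HFD groups did not overlap, cKO being lower, but their nearest arrays read 6.856 and 6.864. The changes were -0.67 ± 0.27 on HFD (adjusted p = 0.384) and -0.50 ± 0.27 on SD (adjusted p = 0.812). Ifit3, its near copy, read 6.88, 6.99 and 7.004 on cKO HFD arrays, 8.28, 7.04 and 7.12 on control HFD arrays, 7.61, 7.33 and 7.44 on cKO SD arrays and 7.25, 7.63 and 7.68 on control SD arrays, with a change of -0.52 ± 0.27 on HFD (adjusted p = 0.497). Array 1 of control HFD was the highest array of all 12 for both genes. Ifit2 read 6.13, 6.35 and 6.45 on cKO HFD arrays, against 6.60, 6.64 and 6.83 on control HFD arrays, with no overlap, and its HFD change of -0.38 ± 0.10 had adjusted p = 0.243. Ifit1 read 7.02, 6.16 and 6.57 on cKO SD arrays, against 6.02, 6.01 and 6.17 on control SD arrays, with a change of 0.52 ± 0.22 (adjusted p = 0.698). Signs for the whole group under both diets were as follows: 13 of 21 members were above 0 on both diets, 4 (Ifit2, Ifit3, Ifit3b and Xaf1) below 0 on both, and 4 (Ifih1, Stat2, Irf9 and Samhd1) above 0 on SD and below 0 on HFD.

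**Figure D2:**
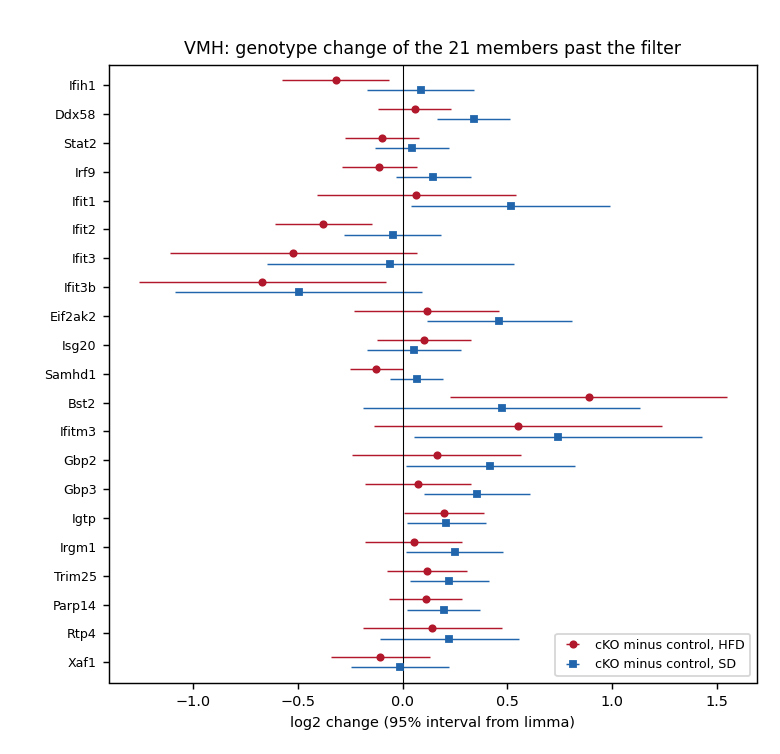
Log2 change between cKO and control in VMH for the 21 members past the filter, on HFD (red circles) and on SD (blue squares), with 95% intervals from the fit over 12 arrays. On SD 17 of 21 points lie above 0, and on HFD 13 of 21.

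The diet was compared next in VMH. In controls 0 members passed the threshold, as did 0% of genes, and 3 were higher and 0 lower at an unadjusted p under 0.05, against 6.38% and 2.12% of all genes. The groups did not overlap in 3 members, all higher on HFD, against 8.69% of genes that were higher and 3.78% that were lower. Samhd1 read 8.65, 8.70 and 8.75 on control HFD arrays, against 8.43, 8.54 and 8.41 on control SD arrays. The groups did not overlap, and the change was 0.24 ± 0.058 (adjusted p = 0.369). Irf9, the DNA-binding part of the ISRE factor, read 6.71, 6.79 and 6.81 on control HFD arrays, against 6.50, 6.59 and 6.49 on control SD arrays, with no overlap and a change of 0.24 ± 0.081 (adjusted p = 0.488). Ifit2 followed with 0.24 ± 0.10 (adjusted p = 0.583), its control SD arrays reading 6.36, 6.45 and 6.56. The lowest statistics in controls were those of Igtp (-0.15), Isg20 (-0.064) and Parp14 (-0.024), all with adjusted p of 0.694 or more. Isg20, an RNA exonuclease, read 6.53, 6.70 and 6.64 on cKO HFD arrays, 6.38, 6.57 and 6.61 on control HFD arrays, 6.84, 6.56 and 6.51 on cKO SD arrays and 6.63, 6.45 and 6.67 on control SD arrays. Parp14, an ADP-ribosyltransferase, read 5.54, 5.72 and 5.75 on cKO HFD arrays, 5.62, 5.63 and 5.42 on control HFD arrays, 5.75, 5.72 and 5.86 on cKO SD arrays and 5.55, 5.60 and 5.60 on control SD arrays. Diet groups of either genotype overlapped in Isg20 and in Parp14.

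In cKO mice the diet change ran below 0 in 18 of 21 members, with a median of -0.14, while the median over all genes was 0.027. Without array 1 of cKO HFD that median was -0.064. In the same arrays the choroid plexus and meninges mean given above was lower on all 3 cKO HFD arrays than on the cKO SD arrays, with 6 of 7 genes below 0. The mean of the 9 VMH neuron markers was 10.62 to 10.91 on cKO HFD arrays, above 10.36 to 10.46 on cKO SD arrays, with 9 of 9 above 0. The part of these markers in the members' values was not tested. No member passed (0.00617% of genes did), 0 were under an unadjusted p of 0.05 in either direction (9.56% of genes were, 7.38% higher and 2.18% lower), and 6 had groups that did not overlap, all lower on HFD, against 5.67% of genes. Those 6 were Eif2ak2 (-0.34 ± 0.16), Gbp3 (-0.23), Ifih1 (-0.22), Ifit3 (-0.50), Irgm1 (-0.19) and Ddx58 (-0.14), with adjusted p between 0.526 and 0.627. Bst2 had the highest statistic here, with 0.35 ± 0.30 (adjusted p = 0.751), followed by Samhd1 (0.045) and Stat2 (0.0065). Stat2, the signal transducer that pairs with Irf9, read 7.63, 7.62 and 7.48 on cKO HFD arrays, 7.66, 7.68 and 7.70 on control HFD arrays, 7.59, 7.45 and 7.68 on cKO SD arrays and 7.44, 7.67 and 7.47 on control SD arrays, all within 0.26 of each other.

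The interaction asks whether the genotype change differed between diets. It was below 0, that is, lower on HFD, in 19 of 21 members, with a median of -0.19 and 0.0096 over all genes. This comparison uses the same arrays as the previous ones and is no separate support for them. No member passed (0% of genes did), and 5 were lower and 0 higher at an unadjusted p under 0.05, against 2.43% and 3.19% of genes: Ddx58 (-0.28 ± 0.11), Ifih1 (-0.41 ± 0.17), Samhd1 (-0.19 ± 0.082), Irf9 (-0.26 ± 0.11) and Ifit2 (-0.33 ± 0.15). Their adjusted p lay between 0.863 and 0.873. The highest statistics were those of Bst2 (0.42), Isg20 (0.049) and Igtp (-0.013). Averaged over diets the genotype change had a median of 0.15 over the members and 0.023 over all genes, with 14 above 0 and 7 below. At an unadjusted p under 0.05, 9 members were higher and 2 lower, against 8.45% and 3.01% of genes, and 0 passed the threshold, as 0.66% of genes did.

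Other interferon response genes, a further list of 41 that holds no member, had 18 tested in VMH, and 2 of them passed the threshold, both higher in cKO averaged over diets. Cmpk2, a nucleotide kinase, read 9.16, 9.14 and 9.06 on cKO HFD arrays, 8.68, 8.79 and 8.73 on control HFD arrays, 8.88, 9.07 and 9.15 on cKO SD arrays and 8.60, 8.77 and 8.69 on control SD arrays. No cKO array overlapped a control array on either diet, and the averaged change was 0.37 ± 0.054 (adjusted p = 0.00895). Gbp7, a guanylate-binding protein, read 7.48, 7.83 and 7.64 on cKO HFD arrays, 7.31, 7.19 and 6.97 on control HFD arrays, 7.61, 7.78 and 7.88 on cKO SD arrays and 7.07, 7.40 and 7.20 on control SD arrays. It did not overlap either, and its averaged change was 0.51 ± 0.087 (adjusted p = 0.0214). The call of Cmpk2 held in all 20 alternatives (adjusted p 0.00287 to 0.0339), and that of Gbp7 held in 14 of 20. It was lost without array 2 or 3 of cKO SD, 2 or 3 of control HFD or 2 or 3 of cKO HFD, with changes of 0.47 to 0.52 and adjusted p of 0.0522 to 0.0686. In the gene table Cmpk2 adjoins the member Rsad2 on chromosome 12, and Gbp7 adjoins the member Gbp3 on chromosome 3, with no protein-coding gene starting between them. Rsad2 was under the filter in VMH, and the averaged change of Gbp3 was 0.21 ± 0.081 (adjusted p = 0.366). Of the whole further list 16 changes averaged over diets were above 0 and 2 below, with a median of 0.083. Epsti1 had the next smallest p of the list, with -0.26 ± 0.10 between the diets in controls (adjusted p = 0.518).

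The upstream side of the pathway gave no called gene in VMH. Of 10 interferon genes only Ifnl2 and Ifnl3 reached the filter, and their smallest adjusted p over the 6 comparisons was 0.574. Among 15 receptor and JAK-STAT genes 11 were tested and 0 passed. Stat3 had the smallest p of them, with 0.60 ± 0.14 between the diets in controls (adjusted p = 0.346), then Ptpn2, a phosphatase of JAKs, and Ifngr2, a receptor chain for interferon gamma. Among 19 nucleic acid sensing genes 9 were tested and 0 passed, and Myd88, an adaptor of Toll-like receptors, had a change of 0.29 ± 0.10 between the genotypes on HFD (adjusted p = 0.317). Of 17 antigen presentation genes 8 were tested and 0 passed.

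**Figure D3:**
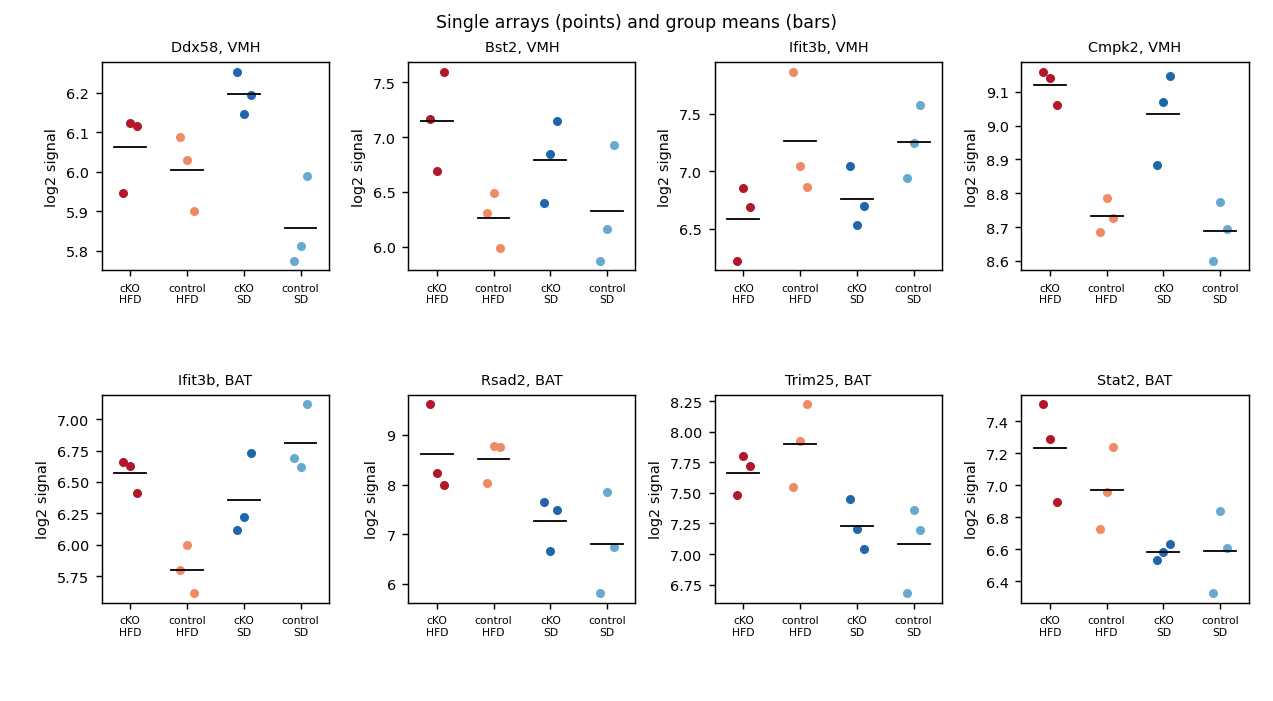
Log2 signal of single arrays (points, arrays 1 to 3 from left to right) and group means (bars) for Ddx58, Bst2, Ifit3b and Cmpk2 in VMH and for Ifit3b, Rsad2, Trim25 and Stat2 in BAT, each panel on its own scale. In VMH all 6 cKO arrays of Cmpk2 lie above all 6 control arrays, and in BAT all 3 control HFD arrays of Ifit3b lie below the other 9.

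In BAT the genotype comparisons again called 0 members, and 0% of 17124 genes on either diet. On SD 20 of 31 changes were above 0, with a median of 0.11 over the members and -0.016 over all genes, and without array 1 of control SD the median was 0.041. On HFD 24 of 31 were above 0, with a median of 0.17 and -0.016 over all genes. In the same HFD arrays the 10 endothelial markers were lower in cKO in 10 of 10, with a median of -0.91, 8 of them with no overlap, and their mean was 9.06 to 9.21 on cKO HFD arrays and 9.86 to 10.75 on control HFD arrays. The 14 skeletal muscle markers were above 0 in 14 of 14 on HFD, with a median of 2.26 and overlapping groups. They were above 0 in 14 of 14 on SD, with a median of 3.03. Their mean on cKO SD arrays, 14.85 to 17.26, lay within the control SD range of 6.13 to 17.43. Only array 2 of control SD was that low, arrays 1 and 3 being at 17.43 and 16.53. None of these markers passed the threshold, and their part in the members' values was not tested. Without array 3 of cKO HFD the HFD median was 0.39, without array 1 of cKO HFD it was 0.067 and without array 1 of control HFD 0.091. At an unadjusted p under 0.05, 1 member was higher and 1 lower on SD (1.67% and 1.89% of genes, 3.56% together), and 3 were higher and 1 lower on HFD (2.87% and 5.39%). Groups did not overlap in 4 members on SD (Usp18, Irf7, Irf9 and Oasl2) and in 2 on HFD (Ifit3b and Ifit1), all higher in cKO, where 3.53% and 7.33% of genes were. Over both diets 17 members were above 0 on both, 4 below 0 on both, 3 above 0 on SD alone and 7 above 0 on HFD alone. Averaged over diets 24 of 31 were above 0, with 0 past the threshold (0% of genes), and 1 was higher and 0 lower at an unadjusted p under 0.05, against 2.95% and 5.78% of genes.

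Ifit3b had the highest statistic for genotype on HFD and the lowest on SD. It read 6.66, 6.63 and 6.42 on cKO HFD arrays, 5.80, 5.99 and 5.61 on control HFD arrays, 6.12, 6.22 and 6.73 on cKO SD arrays and 6.69, 6.62 and 7.12 on control SD arrays. The control HFD arrays were the 3 lowest of the 12, and did not overlap those of cKO HFD or of control SD. Its changes with genotype were 0.77 ± 0.19 on HFD (adjusted p = 0.48) and -0.45 ± 0.19 on SD (adjusted p = 0.982), and the interaction was 1.22 ± 0.27 (unadjusted p = 0.00116, adjusted p = 1). Ifit3, the near copy, read 6.51, 6.06 and 6.45 on cKO HFD arrays, 6.26, 6.29 and 6.20 on control HFD arrays, 6.07, 6.63 and 6.45 on cKO SD arrays and 6.59, 6.39 and 6.38 on control SD arrays, a range of 0.57 over the 12 arrays. Ifit1 read 5.55, 5.59 and 5.38 on cKO HFD arrays, against 5.21, 5.03 and 5.05 on control HFD arrays, with no overlap and a change of 0.41 ± 0.13 (adjusted p = 0.511).

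Usp18, the protease that removes Isg15 and also brakes receptor signalling, had the highest statistic on SD. It read 4.80, 4.58 and 4.44 on cKO SD arrays, against 4.21, 4.33 and 4.34 on control SD arrays, with no overlap and a change of 0.31 ± 0.11 (adjusted p = 0.982). Irf7, the factor that amplifies type I interferon output, read 4.92, 5.10 and 4.99 on cKO SD arrays, against 4.82, 4.80 and 4.88 on control SD arrays, also with no overlap and with a change of 0.17 ± 0.11 (adjusted p = 0.982). Igtp and Gbp2 had low statistics on SD, with changes of -0.76 ± 0.55 and -0.56 ± 0.37. Without array 2 of control SD these were -0.37 and -0.15, and without array 1 of control SD the change of Igtp was -1.30. Igtp read 8.32, 9.63 and 7.73 on cKO HFD arrays, 7.15, 7.47 and 8.17 on control HFD arrays, 7.72, 7.68 and 7.93 on cKO SD arrays and 7.44, 9.31 and 8.85 on control SD arrays. Its arrays overlapped between genotypes on both diets, and arrays 2 and 3 of control SD and array 2 of cKO HFD were the highest. Isg15 read 4.13, 4.25 and 4.11 on cKO HFD arrays, 4.03, 4.13 and 4.44 on control HFD arrays, 4.04, 4.15 and 4.34 on cKO SD arrays and 4.17, 4.41 and 4.32 on control SD arrays, all within 0.41 of each other.

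Xaf1 and Rtp4 stood at opposite sides of 0 in the HFD comparison of genotypes. Xaf1, a pro-apoptotic protein that counters XIAP, had the lowest statistic of all members there. It read 6.46, 6.39 and 6.59 on cKO HFD arrays, 6.49, 7.30 and 7.30 on control HFD arrays, 6.72, 6.38 and 6.49 on cKO SD arrays and 5.96, 6.51 and 6.17 on control SD arrays, with a change of -0.55 ± 0.23 on HFD (adjusted p = 0.592) and an interaction of -0.87 ± 0.32 (adjusted p = 1). Control HFD arrays 2 and 3 were the highest of all 12. Rtp4, a chaperone of receptors at the cell surface, read 6.08, 6.15 and 6.01 on cKO HFD arrays, against 5.41, 5.66 and 6.06 on control HFD arrays, groups that overlapped, with a change of 0.37 ± 0.15 (adjusted p = 0.592).

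The diet comparisons in BAT held the one call among the members. In controls Ifit3b fell on HFD by 1.01 on the log2 scale, with an SE of 0.19 and adjusted p = 0.0496, where 0.771% of genes passed in either direction and 0.146% as lower. The values are those given above: control HFD arrays lay between 5.61 and 5.99, and control SD arrays between 6.62 and 7.12. In cKO the same gene had a change of 0.21 ± 0.19 (adjusted p = 0.511). This call is close to the threshold and was kept in 4 of 21 alternatives, over which the adjusted p ran from 0.0168 to 0.238 and the change from -1.10 to -0.81. It was lost without any 1 of the arrays apart from array 1 of cKO SD and array 2 of control SD.

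Most other members read higher on HFD. In controls 24 of 31 changes were above 0 and 7 below, with a median of 0.22, while the median over all genes was 0.046 and 56.6% of them were above 0. That median was 0.11 without array 3 of control HFD, 0.35 without array 2 of control SD and 0.34 without array 1 of control HFD. At an unadjusted p under 0.05, 9 members were higher and 1 lower, against 13.3% and 9.73% of genes, and the groups did not overlap in 9 members that were higher and 3 that were lower, against 14.3% and 10.8%. In cKO 25 of 31 were above 0, with a median of 0.28 and 0.044 over all genes. There 0 members passed (0% of genes did), 10 were higher and 0 lower at an unadjusted p under 0.05, against 12% and 10.9% of genes, and 11 were higher with no overlap, against 15.5%. The interaction median was 0.014, with 17 above 0 and 14 below, and ran from -0.033 to 0.11 with 1 array left out. There 0 members passed (0% of genes did), and 1 was higher and 1 lower at an unadjusted p under 0.05, against 1.65% and 2.14% of genes.

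Rsad2 had the widest range of any member in BAT, 3.80 log2 units over the 12 arrays. It read 9.62, 8.24 and 7.997 on cKO HFD arrays, 8.03, 8.77 and 8.75 on control HFD arrays, 7.65, 6.67 and 7.49 on cKO SD arrays and 5.81, 7.86 and 6.75 on control SD arrays. All 6 HFD arrays lay above all 6 SD arrays, of which array 2 of control SD came nearest at 7.86. The changes were 1.71 ± 0.56 in controls (adjusted p = 0.134) and 1.35 ± 0.56 in cKO (adjusted p = 0.197).

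Trim25, a ubiquitin ligase that activates RIG-I, showed the same separation of diets with a smaller spread. It read 7.48, 7.80 and 7.72 on cKO HFD arrays, 7.55, 7.92 and 8.22 on control HFD arrays, 7.45, 7.21 and 7.04 on cKO SD arrays and 6.68, 7.36 and 7.20 on control SD arrays, with changes of 0.82 ± 0.22 in controls (adjusted p = 0.095) and 0.44 ± 0.22 in cKO (adjusted p = 0.254). Xaf1, whose values are given above, had a change of 0.82 ± 0.23 in controls (adjusted p = 0.102) and -0.051 ± 0.23 in cKO. Ddx58, the partner of Trim25, read 7.40, 7.31 and 7.06 on cKO HFD arrays, 7.29, 7.43 and 7.45 on control HFD arrays, 7.24, 6.64 and 6.55 on cKO SD arrays and 6.57, 7.22 and 6.68 on control SD arrays, with 0.57 ± 0.21 in controls (adjusted p = 0.164). When array 2 of control SD was left out, 5 of 31 members passed the threshold in controls, as did 2716 of 17124 genes. The members' share thus lay near that of all genes. Beside Ifit3b, which was lower, they were Rsad2 (2.24), Xaf1 (0.97), Trim25 (0.96) and Ddx58 (0.77), all higher. Their adjusted p (limma) were 0.0278, 0.0318, 0.0289 and 0.0373. Array 2 of control SD is the SD array with the low muscle level of 6.13. On it Rsad2 read 7.86 and Trim25 7.36, below all 6 HFD arrays of each gene, and Ifit3b read 6.62, above all 3 control HFD arrays. Ddx58 read 7.22 and Xaf1 6.51 on it, within the range of the 6 HFD arrays of each gene (7.06 to 7.45 and 6.39 to 7.30). The part of muscle content in these values was not tested.

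Stat2, Gbp2 and Oas1a had the highest statistics for diet in cKO mice. Stat2 read 7.51, 7.29 and 6.90 on cKO HFD arrays, 6.72, 6.96 and 7.24 on control HFD arrays, 6.53, 6.58 and 6.64 on cKO SD arrays and 6.32, 6.84 and 6.61 on control SD arrays. The cKO diets did not overlap, and the change was 0.65 ± 0.19 (adjusted p = 0.117). Gbp2 read 9.88, 10.34 and 9.49 on cKO HFD arrays, 9.20, 9.53 and 10.09 on control HFD arrays, 9.11, 8.78 and 8.62 on cKO SD arrays and 8.88, 10.21 and 9.11 on control SD arrays, with no overlap in cKO and a change of 1.06 ± 0.37 (adjusted p = 0.152). The low-muscle SD array 2 of control read 10.21 for Gbp2, within the HFD range. Oas1a, an enzyme that makes the messenger activating RNase L, read 4.98, 4.49 and 4.44 on cKO HFD arrays, 4.48, 4.45 and 4.47 on control HFD arrays, 4.06, 4.34 and 4.34 on cKO SD arrays and 3.97, 4.12 and 4.19 on control SD arrays, and both genotypes separated by diet, with 0.39 ± 0.15 in cKO (adjusted p = 0.17) and 0.38 ± 0.15 in controls. Other members above 0 with no overlap in cKO were Ifit1, Irf1, Eif2ak2, Dhx58, Bst2 and Rtp4. Parp14 read 8.35, 8.17 and 7.74 on cKO HFD arrays, 7.74, 7.97 and 7.91 on control HFD arrays, 7.54, 7.90 and 7.68 on cKO SD arrays and 7.31, 7.55 and 7.44 on control SD arrays, with 0.44 ± 0.16 in controls (adjusted p = 0.159).

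A few members did not join this direction. Igtp, whose values are given above, had a change of -0.94 ± 0.55 in controls (adjusted p = 0.329) and 0.78 ± 0.55 in cKO, with overlapping groups. Its change in controls was -0.55 without array 2 of control SD and -1.49 without array 1 of control SD. Ifih1 read 7.99, 7.35 and 7.32 on cKO HFD arrays, 6.97, 7.12 and 7.45 on control HFD arrays, 7.52, 7.89 and 7.84 on cKO SD arrays and 8.25, 7.09 and 7.65 on control SD arrays, overlapping groups, with -0.49 ± 0.29 in controls and -0.20 ± 0.29 in cKO. Irgm1 read 6.69, 7.27 and 6.49 on cKO HFD arrays, 6.57, 6.59 and 6.63 on control HFD arrays, 6.69, 7.18 and 6.76 on cKO SD arrays and 6.76, 6.69 and 6.89 on control SD arrays, with -0.19 in controls and -0.057 in cKO. Ifit3 had a change of -0.20 in controls and -0.045 in cKO, and Irf7 one of 0.032 in controls and -0.027 in cKO. In controls the Ifit3 and Irgm1 groups did not overlap, HFD being lower. Isg15 averaged 4.20 on control HFD and 4.30 on control SD arrays, and 4.16 on cKO HFD and 4.17 on cKO SD arrays. Rtp4 averaged 5.71 on control HFD and 5.78 on control SD arrays, though it was higher on HFD in cKO.

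**Figure D4:**
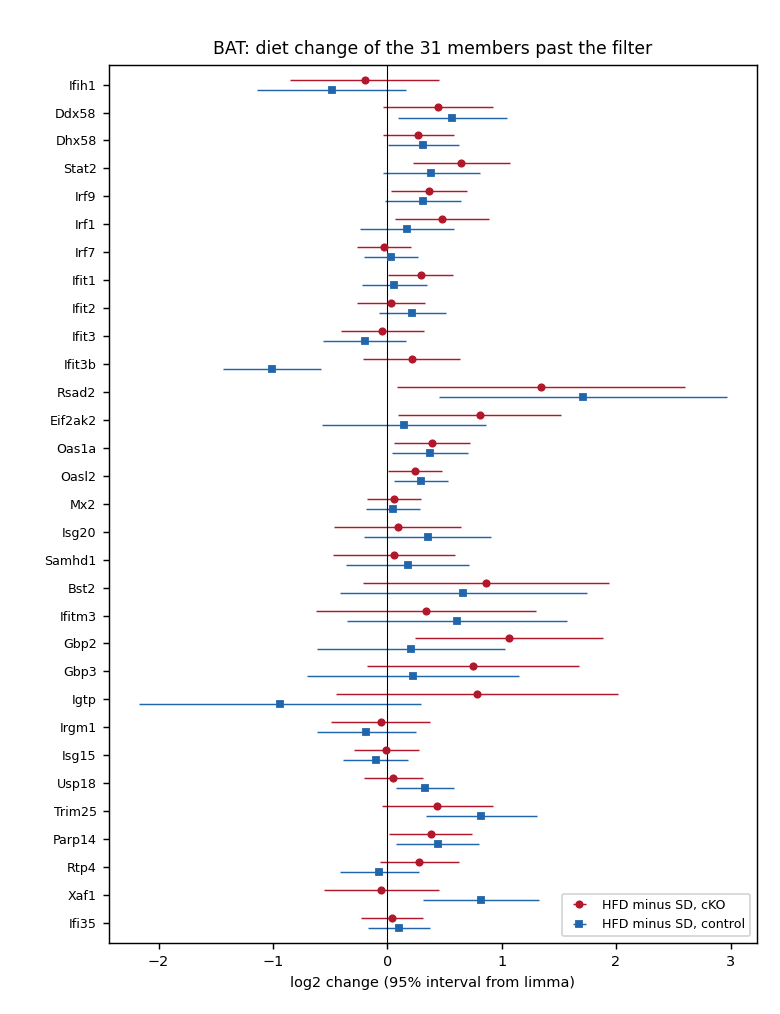
Log2 change between HFD and SD in BAT for the 31 members past the filter, in cKO (red circles) and in control mice (blue squares), with 95% intervals from the fit over 12 arrays. Rsad2 has the largest changes in both genotypes (1.35 in cKO and 1.71 in controls), and Ifit3b in controls lies at -1.01.

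Markers of other cells moved with diet in the same BAT arrays. The mean of 15 macrophage markers (of 18 listed) was 7.44 to 8.51 on cKO HFD arrays and 7.32 to 7.97 on control HFD arrays, against 6.67 to 7.14 on cKO SD arrays and 6.09 to 6.99 on control SD arrays, with no overlap of diets. Cd68 and Ctss, of this list, rose in controls by 2.85 and 3.65 (adjusted p = 0.0335 and 0.0382). Endothelial markers, 10 of 10 tested, averaged 9.06 to 9.21 on cKO HFD arrays and 9.86 to 10.75 on control HFD arrays, against 8.47 to 8.93 on cKO SD arrays and 8.34 to 9.52 on control SD arrays. Pecam1 and Cldn5 rose in controls by 1.62 and 1.58 (adjusted p = 0.0384 and 0.0425). Of 21 alternatives the call of Cd68 held in 10, those of Ctss and Pecam1 in 8 each and that of Cldn5 in 5, with adjusted p of up to 0.238. All 4 calls were lost with the replicate block, with array weights and with only the groups compared. They were also lost without array 1 or 3 of control SD, 2 or 3 of cKO SD, 1 of control HFD or 2 or 3 of cKO HFD. Leaving out array 1 of control SD and array 2 of cKO SD together lost all 4 as well. Without array 2 or 3 of control HFD or array 1 of cKO HFD some of the 4 were lost. The muscle level given above was lower on all HFD arrays than on 5 of the 6 SD arrays. The median deviation of the 31 members from their gene means was 0.29, 0.24 and 0.028 on cKO HFD arrays and -0.10, 0.061 and 0.17 on control HFD arrays. On cKO SD arrays it was -0.11, -0.072 and -0.064, and on control SD arrays -0.34, -0.065 and -0.20. The array with the lowest brown adipocyte mean, array 1 of control SD at 7.22, was also the lowest in the members. The part of these cell markers in the members' values was not tested. Leaving out that array and array 2 of cKO SD, the lowest in brown adipocyte markers, a step chosen after the values were seen, gave member medians of 0.15 in controls and 0.26 in cKO and no member past the threshold. Rsad2 then had a change of 1.22 in controls (adjusted p = 0.336).

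**Figure D5:**
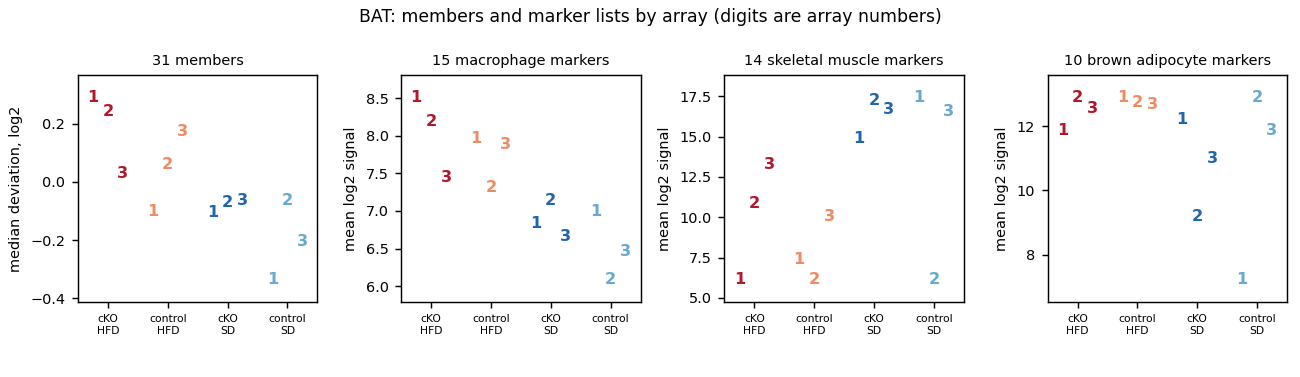
BAT by array, with digits for array numbers: the median deviation of the 31 members from their gene means (left), and mean log2 signals of 15 macrophage, 14 skeletal muscle and 10 brown adipocyte markers, each panel on its own scale. Control SD array 2 has a muscle mean of 6.13 among SD arrays of 14.85 or more, and control SD array 1 is lowest in the members (-0.34) and in brown adipocyte markers (7.22).

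The rest of the pathway in BAT gave no called gene. Of 41 other interferon response genes 30 were tested. In controls 22 changes with diet were above 0, with a median of 0.27, and in cKO 23 were, with a median of 0.27 as well. Lgals3bp and Lgals9 had diet changes of 1.87 ± 0.33 in cKO (adjusted p = 0.0891) and 2.51 ± 0.49 in controls (adjusted p = 0.0523), respectively. Ifi27l2a had one of -2.15 ± 0.44 in controls (adjusted p = 0.062). Cmpk2 had a change of 0.66 ± 0.18 with diet in controls and of -0.13 ± 0.13 with genotype, averaged over diets, neither past the threshold (adjusted p = 0.102 and 0.77). Of 17 antigen presentation genes 14 were tested, and 12 changes with diet in cKO and 10 in controls were above 0, with 0 past the threshold (smallest adjusted p of 0.107 in cKO and 0.0981 in controls). Of the interferon genes only Ifna4 and Ifnl3 reached the filter. The sensing genes had 16 tested, with Tbk1, the kinase that activates Irf3, at 0.69 ± 0.15 between the diets in cKO (adjusted p = 0.103), and the 11 receptor and JAK-STAT genes tested included Tyk2 at 0.29 ± 0.093 in controls (adjusted p = 0.127).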

How the data were processed

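Total RNA of 12 VMH and 12 BAT samples was hybridised to Affymetrix arrays. The deposited log2 signals were made by the authors with Affymetrix Expression Console 1.1.1 and PLIER 2.0, per the submitters' processing notes, and no step beyond that is stated. They were used as deposited. Arrays have no read depth, and 3 arrays per group limit the precision. Features with 1 gene symbol in the platform annotation were kept, the brightest per gene in each tissue, if their mean reached the median of the table. limma 3.58.1 (R 4.3.3) fitted the 4 group means over 12 arrays per tissue, with Benjamini-Hochberg adjustment over all genes tested in a comparison and a threshold of 0.05. All adjusted p-values are limma's. The fit was tested on simulated data with 200 changed genes of known size: for cKO against control on HFD it recovered 92% of changes of 1 and 100% of changes of 2 (log2) in VMH, among 16211 genes, and 53% and 86% in BAT, among 17124 genes. Of the calls, 12 of 204 in VMH and 10 of 149 in BAT were false. Changes under 1, the size of most member changes, were not simulated. Noise was drawn for each gene apart, so spread that genes share was not simulated. In BAT the first principal component held 72.2% of the variance. As alternatives, each array was left out in turn, array weights or the replicate block were added, and the fit was limited to the groups compared. Quantile normalization, a pseudocount of 16, no filter, a gene's mean over its features and a robust trended prior were tried as well, and in BAT the 2 arrays lowest in brown adipocyte markers were left out, a choice made after seeing the data. Members and lists were chosen with earlier results of these data known. Named genes are those past the threshold and, per tissue and comparison, the 3 members with the highest and the 3 with the lowest statistic. Any member could also be named with its level. Some members are also given with changes in comparisons outside this rule, such as Ifit1 in VMH on SD. Others are Ddx58 and Parp14 for diet in control BAT. Those changes are not among the 1600 single-gene changes recomputed under the alternatives. From each other list, genes past the threshold and up to 3 of smallest p per tissue were taken. Promoters came from RefSeq (GRCm38.p6) and were searched with Python 3.11.15.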

Additional observations from a re-analysis of the deposited data

Results flagged for a closer look

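Among 84 pairs of member effects compared between VMH and BAT, 2 (2.38%) had every array of one group on opposite sides of the other group in the 2 tissues. Over all genes tested in both tissues the share was 1.76% of 55972 pairs, so the members' share lies near the background. Among 104 pairs compared between diets or genotypes within a tissue there were 0. The share over all genes was not computed for such pairs, so this 0 says nothing particular about the members. Ifit3b was lower in cKO on HFD in VMH, with 6.22, 6.86 and 6.69 on cKO HFD arrays, against 7.87, 7.05 and 6.86 on control HFD arrays and a change of -0.671. The nearest arrays of these VMH groups read 6.856 and 6.864, with an SD within groups of 0.376. In BAT Ifit3b was higher in cKO on HFD, with 6.66, 6.63 and 6.42 on cKO HFD arrays, against 5.80, 5.99 and 5.61 on control HFD arrays and a change of 0.765. Its near copy Ifit3 overlapped between genotypes on HFD in BAT, with 6.06 to 6.51 in cKO and 6.20 to 6.29 in controls. Eif2ak2 was lower on HFD in cKO mice in VMH, with 7.24, 7.45 and 7.43 on cKO HFD arrays, against 7.64, 7.69 and 7.83 on cKO SD arrays and a change of -0.344. In BAT it was higher on HFD in cKO mice, with 9.92, 9.48 and 9.61 on cKO HFD arrays, against 9.30, 8.38 and 8.92 on cKO SD arrays and a change of 0.808. None of these 4 changes passed the threshold, and the difference between the tissues was not tested.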

How the results depend on the processing

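Each result was recomputed under 20 alternatives in VMH and 21 in BAT. The 11 counts of members past the threshold that were 0 stayed at 0 in 224 of 225 alternatives, the exception being HFD against SD in cKO BAT with array weights, where 14 members (45.2%) passed, as 50.5% of all genes did. That weight estimate did not converge, with weights between 0.000317 and 30.6. The count for HFD against SD in control BAT, 1 member (Ifit3b), was 0 with quantile normalization, a pseudocount of 16, no filter, only the groups compared, array weights, the replicate block and without the 2 arrays lowest in brown adipocyte markers, and 0 to 5 with 1 array left out. The count of 5, of 31 members, came without array 2 of control SD, where 2716 of 17124 genes were called. With the replicate block the adjusted p of Ifit3b was 0.0963. Whether the replicate numbers pair the arrays could not be settled. Over 18 same-numbered pairs per tissue the correlation of deviations ran from -0.351 to 0.280 in VMH and from -0.772 to 0.390 in BAT. It was over 0.1 in 3 pairs in VMH and in 9 in BAT, where the pairs of arrays numbered 3 had r of 0.130 to 0.390. Differently numbered pairs in BAT ran from -0.452 to 0.812. Of 246 recomputed medians 1 moved by at least the SD of the members' median between arrays of a group, 0.162 in VMH and 0.194 in BAT. It was cKO against control on HFD in BAT, 0.0671 to 0.385 with 1 array left out. Most of the medians are themselves smaller than that SD, so the count says little about their stability. The VMH median of cKO against control on HFD ran from -0.0021 to 0.115 and did not count as moved. Of 1600 recomputed single-gene changes 31 changed sign, in 12 results, none past the threshold, and the cause was not tested. With quantile normalization these were Igtp in VMH (interaction, 0.00937) and Ifit3 in BAT (diet in cKO, 0.0321). With array weights they were Isg20 (diet in controls, 0.0223) and Stat2 (diet in cKO, -0.0330) in VMH, and Ifit3b (genotype on SD, 0.0369), Isg15 (averaged genotype, 0.0434) and Irgm1 (diet in cKO, 0.158) in BAT. Without the 2 arrays lowest in brown adipocyte markers they were Irgm1 (0.0934) and Ifit3 (0.0787) for diet in cKO BAT. With 1 array left out, VMH changes ran from -0.113 to 0.0344 for Ifit2 and -0.195 to 0.0226 for Ifit3 (genotype on SD), from -0.132 to 0.00415 for Isg20 and -0.0624 to 0.0450 for Parp14 (diet in controls), from -0.0531 to 0.0595 for Stat2 (diet in cKO), and from -0.0929 to 0.0640 for Igtp and -0.0188 to 0.152 for Isg20 (interaction). In BAT they ran from -0.263 to 0.0703 for Gbp2 (averaged genotype), and from -0.282 to 0.106 for Irgm1 and -0.204 to 0.0958 for Ifit3 (diet in cKO).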
